A study of Homo sapiens with 4 samples.

Results

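The grainyhead-like factors GRHL1, GRHL2 and GRHL3 and their CP2 relatives TFCP2, TFCP2L1 and UBP1 form 1 family of DNA binding transcription factors, and their mRNA levels are described here in clones of a colorectal carcinoma cell line with and without a knockdown of plakophilin3 (PKP3). The members were taken by gene name, including the older names of the grainyhead-like genes, from the array design, which gave 6 of the 19614 named genes and 8 of the 50238 probes. GRHL1, GRHL2, GRHL3, TFCP2L1 and UBP1 had 1 probe each and TFCP2 had 3. The family was selected on the measured rise of GRHL3 between these same clones, so the values of GRHL3 are given as a description with no test. The other 5 genes were taken by name only.

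The experiment compared 2 stable clones of HCT116, an established human colorectal carcinoma cell line. The vector control clone, vec, and the knockdown clone, shpkp3-2, which carries an shRNA against PKP3 (a desmosomal plaque protein of the armadillo family), were each hybridised on 2 single color arrays with Cy3 labelled RNA. Both clones were kept under drug selection, named in the sample labels as puromycin at 5 µg/ml and in the methods of the study as blasticidin. RNA was collected at separate times, vec 1 with shpkp3-2 1 and vec 2 with shpkp3-2 2. Each comparison is therefore of 1 vector clone with 1 knockdown clone, and the p-values measure only the spread between RNA collections of the same clone. All 4 arrays shared a slide, on which the arrays of each clone were neighbours, so the place on the slide and the clone cannot be told apart. In RNA from a whole culture, a change in every cell and a change in the share of cells that hold the mRNA cannot be told apart either.

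Grainyhead-like factors are transcription factors of epithelia. They are known for their part in the closure of the neural tube, in wound repair and in the formation of the skin barrier, where GRHL3 acts late in keratinocyte differentiation, and GRHL2 holds up the expression of E-cadherin and claudins in simple epithelia. The CP2 branch is expressed more widely: TFCP2 and UBP1 are close relatives present in most tissues, and TFCP2L1 is known from pluripotent stem cells and from the collecting duct of the kidney.

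The values rest on single oligonucleotides of 60 bases, so the probes are shown first. The first 30 bases of the probes of GRHL3, the member that led to the choice of the family, of GRHL1, whose signal was near background, and of the 3 TFCP2 probes, which report on 1 gene, were as follows, from 5′ to 3′ and with no part marked.
GRHL3: atcgactggaacaaagtgaccgctgtgtaa
GRHL1: aacatggacgacaacattgtgaagcattac
TFCP2 probe 1: atgatgatgggaattgtgtgatgtttaaca
TFCP2 probe 2: agaaaccaatgatagctatcatatcatact
TFCP2 probe 3: tcatcagtgatgagatgatacagaactttc
The longest run shared by any pair of the 8 family probes was 8 bases on the same strand and 10 bases with 1 probe read in reverse complement. The GC content of the probes shown ran from 35% to 45%. A bright probe and a dim probe bind with different strength, so no level of 1 gene is set against the level of another below.

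On each array, 60.5% to 63.5% of spots were well above background by the flag of the scanner software, and none was saturated. Levels are given as background subtracted intensities or as normalized log2 intensities, where 0 is the 75th percentile of the array. PKP3 itself read 20850 on vec 1, 22840 on vec 2, 3414 on shpkp3-2 1 and 3078 on shpkp3-2 2. It fell by 2.54 on the log2 scale (SE 0.23, limma adjusted p = 0.0188), to 17.2% of the vec level. Of 9 markers of colorectal epithelium, 7 passed the background flag on all 4 arrays and CDH17 on none, and the summed intensity of the markers was 476700 to 549060 in vec and 531250 to 534730 in shpkp3-2. Among the markers of other cell types, 4 of 6 stromal, 2 of 4 leukocyte and 2 of 3 endothelial genes were above background on no array. None of these markers was called. The summed intensity of the stromal markers was 191 to 344 in vec and 155 to 181 in shpkp3-2, and the part of VIM (149 and 78.7 in vec against 38.6 and 40.6 in shpkp3-2, log2 fold change -1.24, adjusted p = 0.143) in any result below was not tested.

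GRHL3 (NM_198173) was the member in which the clones lay farthest apart. Its intensity was 299.7 on vec 1, 169.7 on vec 2, 2027 on shpkp3-2 1 and 2099 on shpkp3-2 2. Both shpkp3-2 arrays lay far above both vec arrays, and the spread within each clone was small beside the distance between the clones. The mean normalized log2 intensity of vec was -0.95 ± 0.31 (SD, n = 2). That of shpkp3-2 was 2.45 ± 0.05 (SD, n = 2), which is a log2 difference of 3.40 and a level 10.6-fold that of vec. The difference was 3.15 within the first RNA collection and 3.66 within the second. The probe was well above background on all 4 arrays, so the low value in vec is a measured level. It met a 2-fold rule (a log2 difference of at least 1 from the vec mean on each shpkp3-2 array), which 1.12% of the 30512 probes tested met in this direction and 0.623% in the other, and that rise is what led to the choice of the family. Under the other ways of processing the intensities and without any 1 array, the log2 difference stayed between 3.09 and 3.62.

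**Figure D1:**
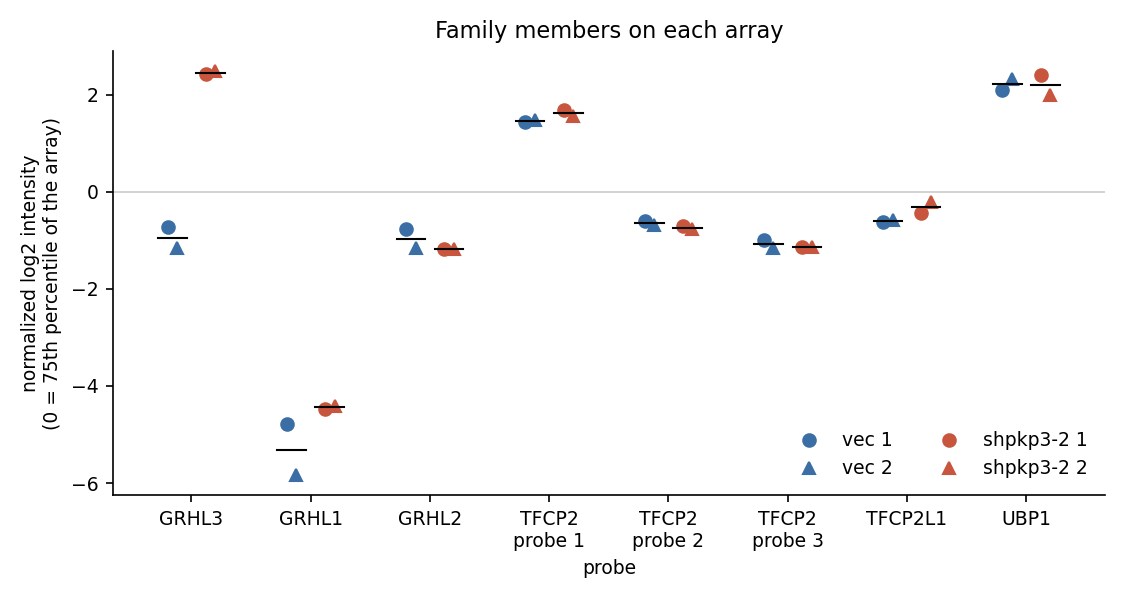
Normalized log2 intensity (y axis, 0 is the 75th percentile of the array) of the 8 family probes (x axis) on the 2 vec arrays (blue) and the 2 shpkp3-2 arrays (red), circles for the first and triangles for the second RNA collection, with black lines at the clone means. GRHL3 stood at -0.95 in vec and 2.45 in shpkp3-2, while the GRHL1 probe lay near background with its vec arrays at -4.78 and -5.84.

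Of the other grainyhead-like genes, GRHL1 had a very weak signal. GRHL1 (NM_014552), an activator of desmosomal cadherin genes in the epidermis, had intensities of 18.1 on vec 1, 6.67 on vec 2, 17.0 on shpkp3-2 1 and 17.6 on shpkp3-2 2. The error that the software gives for these spots was 2.36 to 2.89, and vec 2 was not well above background. In intensity, vec 1 was the brightest of the 4 arrays, and only after the normalization between arrays did both shpkp3-2 arrays lie above both vec arrays. The fitted log2 difference was 0.87 (95% interval 0.01 to 1.73, limma adjusted p = 0.403), with 0.31 in the first and 1.43 in the second RNA collection. As vec measured the gene on 1 of 2 arrays and the probe was tested through the shpkp3-2 arrays alone, nothing is read from this fit. Without vec 1 the difference was 1.39 and was called (adjusted p = 0.0482), but that fit sets 1 vec array not above background against shpkp3-2, assumes that it varies like the shpkp3-2 arrays, and gives no support for a difference. Without vec 2 it was 0.34, and with another background correction (normexp) it was 0.30. The adjusted p ran from 0.0482 to 0.917 over all alternatives.

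GRHL2 (NM_024915), which is known to maintain cell junctions in simple epithelia, had intensities of 294 on vec 1, 170 on vec 2, 166 on shpkp3-2 1 and 166 on shpkp3-2 2. Only vec 1 stood apart, and the other 3 arrays were nearly equal. The log2 difference was -0.22 (95% interval -0.72 to 0.29, limma adjusted p = 0.699), and it was -0.01 without vec 1. The interval leaves out a 2-fold change in either direction.

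The CP2 relatives showed no difference past the threshold. For TFCP2 (NM_005653), a factor also known as LSF that binds promoters of cell cycle genes, the brightest probe had intensities of 1357 on vec 1, 1066 on vec 2, 1209 on shpkp3-2 1 and 1111 on shpkp3-2 2. Its log2 difference was 0.16 (95% interval -0.27 to 0.58, limma adjusted p = 0.736). The second probe, at 327, 238, 233 and 219 on the same arrays, gave -0.09 (95% interval -0.52 to 0.33), and the third, at 250, 171, 172 and 169, gave -0.07 (95% interval -0.50 to 0.36). All 3 probes thus stayed within 0.16 of no change, the brightest above and the other 2 below it, and on the third probe the clones overlapped.

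TFCP2L1 (NM_014553) was measured at 324 on vec 1, 254 on vec 2, 280 on shpkp3-2 1 and 325 on shpkp3-2 2. After normalization both shpkp3-2 arrays lay above both vec arrays, by a log2 difference of 0.28 (95% interval -0.16 to 0.73, limma adjusted p = 0.574). UBP1 (NM_014517), also known as LBP-1, had intensities of 2142, 1916, 2009 and 1495 in the same order, and its clones overlapped. Its log2 difference was 0.30 in the first RNA collection and -0.33 in the second, with a mean of -0.01 (95% interval -0.55 to 0.52, limma adjusted p = 0.985).

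Over the family, GRHL1 was the 1 probe of 8 that did not pass the background flag on all 4 arrays. All 8 passed the filter of 2 arrays of at least 1 clone, GRHL1 through the shpkp3-2 arrays alone. None of the 6 probes of GRHL2, TFCP2, TFCP2L1 and UBP1 was called by limma, where 0.39% of all tested probes were called (0.246% higher and 0.144% lower), and none had an unadjusted p under 0.05, where 12.3% of all tested probes did. After normalization, the clones did not overlap for 4 of these 6 probes, where 45.2% of all tested probes did not overlap. They did not overlap for GRHL3, the reason for the choice, or for GRHL1, which entered through the shpkp3-2 arrays, and nothing is read from these. The median log2 difference of the 6 probes was -0.04, and that of all probes tested was 0.05. With 2 arrays against 2, the smallest two-sided p that an exact permutation test of a single probe can give is 0.333.

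**Figure D2:**
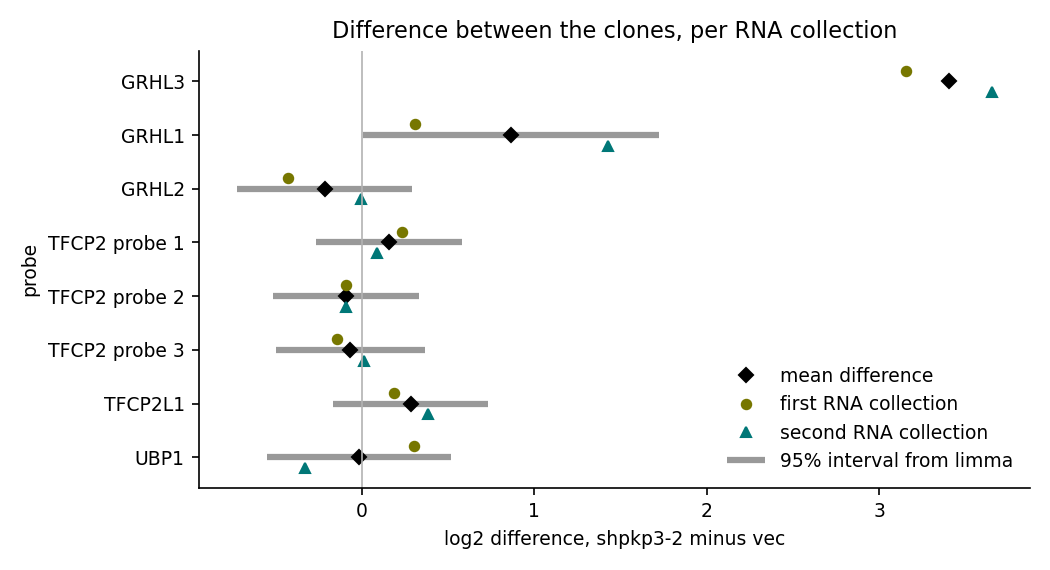
Log2 difference between shpkp3-2 and vec (x axis) for the 8 family probes (y axis), with the mean as a black diamond, the first RNA collection as a circle, the second as a triangle and the 95% interval from limma as a grey bar, which is left out for GRHL3. GRHL3 stood at 3.40, and the intervals of the other probes reached or crossed 0 except that of GRHL1, whose lower end was 0.01 and whose vec 2 array was not above background.

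Genes that are linked to grainyhead-like factors in epithelia were compared next, for 30 such genes, of which 26 could be tested. Each gene is given by its brightest probe. None of these 26 was called by limma in either direction, although 8 had an unadjusted p under 0.05. By gene, 0.275% of the 14571 genes tested were called higher and 0.178% lower.

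The claudin genes CLDN3 and CLDN4 lay above vec but did not pass the test, and CLDN1 was too dim to test. CLDN3, a claudin of simple epithelia, read 1456 and 1154 in vec against 2349 and 2991 in shpkp3-2, a log2 fold change of 1.24 (limma adjusted p = 0.104). It was called with the RNA collection as a block in the fit (adjusted p = 0.00704), while its second probe gave 0.77. The p-values with the block, here and below, need not reflect a smaller standard error. For PKP3 the standard error was 0.23 without and 0.28 with the block, while the limma adjusted p was 0.0188 and 1.3e-07. CLDN4, at 1417 and 1277 in vec against 1982 and 2593 in shpkp3-2, gave 0.96 (adjusted p = 0.197, and 0.0510 with the block). For CLDN3 and CLDN4 both shpkp3-2 arrays were above both vec arrays. MAL2, a protein of apical transport, gave a log2 fold change of 0.84. PRSS8 and ST14, the membrane serine proteases prostasin and matriptase that act in 1 cascade in epithelia, both had values of 0.65, and for neither did the clones overlap.

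At the other end of the list, OVOL2, a repressor of mesenchymal genes, read 244 and 206 in vec against 131 and 106 in shpkp3-2. Its log2 fold change was -0.72 (limma adjusted p = 0.257), whereas that of its relative OVOL1 was 0.77 (adjusted p = 0.258), so that the OVOL genes lay on opposite sides of 0 and neither passed the test. The transglutaminase TGM1, a textbook target of GRHL3 in the epidermis, was lower in both shpkp3-2 arrays, at 132 and 129 in vec against 90.9 and 69.1 in shpkp3-2 and a log2 fold change of -0.50 (adjusted p = 0.448). DSP, which encodes the desmosomal plaque protein desmoplakin, gave a log2 fold change of -0.30. CDH1, which encodes E-cadherin and is the best known target of GRHL2, gave 0.46 (95% interval -0.06 to 0.99). EPCAM, an adhesion protein of epithelial cells, gave 0.23 with overlapping clones.

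Counted over the 26 genes, 19 had a log2 fold change above 0, where 57.4% of all genes tested did. The clones did not overlap for 18, where the share of all genes was 45.5%. For some, such as CDH1, this held only after normalization. In intensity CDH1 read 4526 on vec 1, above the 3850 and 4385 of shpkp3-2. The 75th percentile used for normalization was 499 on vec 1 and 374 to 381 on the other arrays. Of the 8 with an unadjusted p under 0.05, 7 were higher and OVOL2 was lower, where 11.5% of all genes reached it. The median log2 fold change was 0.22, against 0.05 for all genes tested. The 2-fold rule was met by CLDN3, where 1.19% of all genes met it upward and 0.638% downward. The fit with the RNA collection as a block called CLDN3 higher and no other of the 26, where 1.61% of all genes were called higher and 1.02% lower in that fit. CLDN1, DSG1, TGM5 and ZEB1 were not well above background on both arrays of either clone.

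Among 20 partners of grainyhead-like factors and other regulators of epithelial identity, 16 could be tested by their brightest probe and none was called. EHF, an ETS factor of glandular epithelium, read 281 and 266 in vec against 567 and 580 in shpkp3-2, and a log2 fold change of 1.28 (limma adjusted p = 0.0880, and 0.00519 with the block). ELF3, another ETS factor of epithelia, gave 0.61 (adjusted p = 0.386). SNAI2, a repressor of E-cadherin, gave -1.08 (adjusted p = 0.383) with 135.8 on vec 1, 53.0 on vec 2, 25.7 on shpkp3-2 1 and 46.4 on shpkp3-2 2, where the vec arrays were far apart. KLF5, a factor of proliferating crypt cells, gave -0.61 (adjusted p = 0.278). The median of the 16 was -0.03, against 0.05 for all genes tested, and an unadjusted p under 0.05 was reached by 3 genes in each direction, where 11.5% of all genes reached it and 0.453% were called. TP63, VANGL2, ZEB1 and ZEB2 could not be tested.

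ELF5, an ETS factor of mammary and placental epithelium, gave different answers by probe. Its brightest probe gave a log2 fold change of 0.37 (limma adjusted p = 0.531). A dimmer probe read 4.83 and 5.94 in vec, not well above background on either array, and 40.6 and 28.6 in shpkp3-2. It was tested through the shpkp3-2 arrays alone, so nothing is read from its call (adjusted p = 0.0299) and no fold is given. The probe was not called with the normexp correction (adjusted p = 0.153), with quantile normalization (adjusted p = 0.0623), with no filter on detection or with the weaker flag (adjusted p = 0.173 in both).

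The terminal barrier programme that GRHL3 serves in skin was measured in part. Of 22 cornified envelope and barrier genes, 21 matched a probe, 14 could be tested and none was called by its brightest probe. FLG, IVL, KRT1, LCE3D and TGM3, which build or crosslink the envelope, and CLDN1 and TGM5 were not well above background on both arrays of either clone. SPRR3, a small proline rich envelope protein, read 17.1 and 25.5 in vec against 51.2 and 40.1 in shpkp3-2, a log2 fold change of 1.33 (limma adjusted p = 0.237, and 0.00747 with the block). LORICRIN, the main envelope protein, had intensities of 8.42 to 21.5 and was well above background on 1 of the 2 vec arrays, so its fitted value of 0.84 (adjusted p = 0.319) is uncertain, and the protease gene KLK7 gave 0.28. CNFN and PPL, which encode the envelope proteins cornifelin and periplakin, gave -0.21 and -0.19. The median of the 14 was 0.08, against 0.05 for all genes tested, and 0.453% of all genes were called. Of the genes measured on both arrays of each clone, SPRR3 had an unadjusted p under 0.05, which 11.5% of all genes had.

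The probes of SPRR1A, another envelope gene, disagreed. The brightest gave a log2 fold change of 0.09, with 842.5 and 875.2 in vec against 736.2 and 841.5 in shpkp3-2. A second probe read 12.6 and 10.2 in vec, well above background on 1 of the 2 arrays, and 67.3 and 100.6 in shpkp3-2. It too was tested through the shpkp3-2 arrays alone, so nothing is read from its fitted log2 fold change of 3.07 and its call (limma adjusted p = 0.0118). With the normexp correction the fitted value was 1.17, and the call was lost with no filter (adjusted p = 0.0929) and with the weaker flag (adjusted p = 0.109). The level of SPRR1A is therefore uncertain.

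Of 16 partners and reported targets of TFCP2, UBP1 and TFCP2L1, 14 could be tested and none was called. The alpha globin genes HBA1 and HBA2, whose promoter is a known binding target of CP2, lay lowest. HBA1 read 173 and 124 in vec against 55.0 and 58.6 in shpkp3-2, a log2 fold change of -1.16 (limma adjusted p = 0.0887, and 0.0131 with the block). HBA2 gave -1.08 (adjusted p = 0.152, and 0.0252 with the block). A second, dimmer HBA2 probe gave -0.51 (adjusted p = 0.658), was well above background on 1 of the 2 shpkp3-2 arrays and was not called with the block. HBA1 and HBA2 are near identical, so their probes may read the same mRNA and count as 1 observation. SPP1, which encodes the secreted phosphoprotein osteopontin, gave -0.78 (adjusted p = 0.310). MMP9, a secreted gelatinase, gave 0.67 (adjusted p = 0.309), KLF4, a factor of differentiating epithelium, gave 0.29 and APBB1, which encodes the adaptor protein Fe65, gave 0.09. The median was -0.13, against 0.05 for all genes tested, and 4 of 14 genes lay above 0, where 57.4% of all genes did. An unadjusted p under 0.05 was reached by HBA1 and HBA2, which may be 1 observation, by SPP1, also lower, and by MMP9, which was higher, where 11.5% of all genes reached it and 0.453% were called.

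CA9, TUBAL3, MEI1 and GALNT5 were among the 5 genes whose pattern over the 4 arrays was nearest to that of GRHL3. Each probe was centred on its own mean, and likeness was the Euclidean distance over the 4 normalized log2 values, among the 14070 genes that passed the background flag on all 4 arrays. CA9, the cell surface carbonic anhydrase IX, was nearest at 0.592, with a log2 fold change of 3.53. TUBAL3, an alpha tubulin, lay at 0.727 (2.71), MEI1 at 1.09 (2.35) and GALNT5, a glycosyltransferase, at 1.13 (2.30). The median distance of all genes was 3.38. With 4 arrays in 2 clones, likeness of this kind reflects little beyond a similar difference between the clones. TFCP2L1 ranked 2649, TFCP2 4654, UBP1 8650 and GRHL2 11064 of the 14070, and GRHL1, which did not pass the flag on all 4 arrays, was not ranked.

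The genes beside GRHL3 on its chromosome were looked at next, by RefSeq gene order. Of the 12 protein-coding genes on either side, 23 of 24 could be tested and none was called, where 0.453% of all genes were called, a share too low for a count of 0 among 23 to say anything. Their log2 fold changes ran from -0.47 for RUNX3 to 0.45 for the cytokine receptor gene IL22RA1, with a median of 0.13. The neighbours of the other members gave medians between -0.16 and 0.05, and 1 of the 93 tested was called. It was TRANK1, near UBP1, named here after its values were seen. Its probe read 1.96 and 2.10 in vec, not well above background, and 16.1 and 13.0 in shpkp3-2, so that it was tested through the shpkp3-2 arrays alone and nothing is read from its call (limma adjusted p = 0.0114), which was lost with the normexp correction (adjusted p = 0.250).

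Grainyhead-like factors bind the letters AACCGGTT, which read the same on both strands. They were searched for in RefSeq promoter windows of GRCh38.p14, from 250 bases before to 50 bases after a gene's start. The letters were in the window of 45 of 27305 genes (0.165%), and with any base at position 4, AACNGGTT, in that of 584 (2.14%), a count that includes the first. Of the 30 linked genes, ARHGEF19 and PCNA held the exact letters. These windows are shown because both genes are reported to be regulated by grainyhead-like factors, and that of PTP4A1 because it was the 1 gene with the letters that was called. Capitals mark the motif, and all are printed on the strand of the gene.
ARHGEF19, chr1:16212735-16212764, minus strand: cagactagccaAACCGGTTctggggaaggg
PCNA, chr20:5126573-5126599, minus strand: gttctggaggtAACCGGTTactgaggg
PTP4A1, chr6:63572307-63572336, plus strand: agccattcatcAACCGGTTcacaccggcgg
The motif lay 101 bases before the start of ARHGEF19, 162 before that of PTP4A1 and inside the transcript of PCNA. None of the 5 family members with a window held either form.

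The genes with the letters in their window were set beside all tested genes with a window. ARHGEF19, a guanine nucleotide exchange factor, lay at a log2 fold change of -0.09 (limma adjusted p = 0.897), and PCNA, the sliding clamp of DNA replication, at -0.08 (adjusted p = 0.895). Of 26 genes with the exact letters that could be tested, 1 was called (3.85%). Of the 11405 tested genes with a window, 0.386% were called, a share too low for a count of 1 among 26 to say anything. The median log2 fold change was 0.14, against 0.05. PTP4A1, a protein tyrosine phosphatase of the cell membrane, read 8059 and 8890 in vec against 30277 and 27653 in shpkp3-2, a log2 fold change of 1.99 (adjusted p = 0.0433). That call was lost without shpkp3-2 1 (adjusted p = 0.0618), with quantile normalization (0.0517), over probes well above background on all 4 arrays (0.0513), with no filter on detection (0.218) and with the weaker flag (0.186). A second probe gave 2.28 (adjusted p = 0.0114), a call lost with no filter (0.104) and with the weaker flag (0.106). Of 229 tested genes with the looser form, 0.873% were called, against the same 0.386%. PTP4A1 rose and GCNT3, a mucin type glycosyltransferase named after its values were seen, fell by 2.05 on the log2 scale (adjusted p = 0.0238). The median of the looser form was 0.07.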

How the data were processed

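The 4 samples were grouped by clone from their titles. The authors hybridised Cy3 labelled RNA and deposited, per spot, intensity values of Agilent Feature Extraction on a linear scale, background subtracted and not normalized between arrays (processed signal), the mean signal and local background behind them, and flags of 0 or 1, another kind of value (deposited as the software wrote them). The submitters' processing notes name version 9.1, and the file headers 10.7.3.1 and a design on hg18. Blasticidin or puromycin selection was not settled.

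From the deposited intensities, each array was centred, in log2, on the 75th percentile of its 51538 spots other than controls. Spots flagged as non-uniform (26 to 39 per array) were left out and spots of a probe were averaged. A probe was tested where 1 clone or both had it well above background on each array (30512 probes), with limma 3.58.1 in R 4.3.3 (lmFit, eBayes) and Benjamini-Hochberg adjusted p-values, called under 0.05. The 2-fold rule follows the read-me of the study's gene table for these clones, while a figure legend of the study names a lower fold. Probes were named through RefSeq by accession (28595), symbol (2998) or older symbol (1176). The other 17469 matched no gene, kept only the name in the files and were left out of the results by gene. The main fit had no block, as the methods state none. The design text puts same-numbered arrays in 1 RNA collection, so the numbers pair the samples, although the deviations of same-numbered arrays correlated at -0.20. On simulated arrays of this design, 99 of 100 probes changed by a log2 of 2 and 30 of 100 changed by 1 were recovered, with 15 false calls. The simulated noise was normal, independent and of equal spread in both clones. The measured median SD was 0.199 in vec and 0.117 in shpkp3-2, so the counts on the real arrays may differ. Figures and summaries were made with Python 3.11.15, pandas 2.3.3 and matplotlib 3.10.9.

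The members and gene lists were chosen with earlier results of these data known. Named genes are the members, PKP3, every called gene of the lists by its brightest probe, the 3 largest and 3 smallest log2 fold changes of each list and the 5 genes nearest to GRHL3. Of these, 1 is not reported here and was left out of its list's counts. Others were added after their values were seen. Sequences come from the array files and from RefSeq (GRCh38.p14). The place of each probe in its gene was not analysed here.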

Additional observations from a re-analysis of the deposited data

How the results depend on the processing

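Counts of called probes depended on the settings. Against 75 higher and 44 lower, there were 10 and 8 with no filter on detection, 1 and 1 with the weaker detection flag, 25 and 21 over probes well above background on all 4 arrays, and 341 and 190 by the 2-fold rule. With no filter PKP3 itself was not called (adjusted p = 0.135), nor was it with the weaker flag (adjusted p = 0.145), and TRANK1 and GCNT3 also lost their calls under both. Quantile normalization gave 42 higher and the trended, robust variance 114 higher. Leaving out 1 array gave 79 to 400 higher and 54 to 202 lower, with 400 and 202 without vec 2 and 181 and 76 without vec 1. The replicate block, which pairs the RNA collections, gave 503 higher and 338 lower. These larger counts did not go with smaller standard errors in the genes looked at. The standard error of GCNT3 was 0.279 with the block and 0.199 without it. That of PKP3 was 0.282 and 0.230, and that of the dimmer tested ELF5 probe was nearly equal, at 0.295 and 0.297. The block changed no call among the family members. Among the genes of the 4 lists, by their brightest probe, it changed those of CLDN3, EHF, SPRR3, HBA1 and HBA2. With the normexp correction and with the trended, robust variance CLDN3 and EHF were called as well, and without vec 2 EHF, SPRR3, HBA1 and HBA2 were. Crossing the pairs, chosen after seeing the data, gave 64 and 40.

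GRHL3 moved to 3.09 with normexp, and ran from 3.19 to 3.62 with 1 array left out. GRHL1, dim in vec, was called without vec 1 at 1.39 and ran from 0.34 to 1.39 with 1 array left out. TFCP2 probe 3 turned to 0.013 without vec 1 and ran from -0.15 to 0.013 with 1 array left out. UBP1 turned to 0.050 with normexp and ran from -0.22 to 0.19 with 1 array left out, above 0 without vec 2 (0.0997) and without shpkp3-2 2. No call of another member changed. The median of the genes linked to grainyhead-like factors was 0.15 both with median centring and with quantile normalization, which moved the median of all genes from 0.05 to -0.017 and to -0.00034 as well, and 0.23 to 0.32 with 1 array left out. For the regulators it was -0.10 with median centring and -0.13 to 0.15 with 1 array left out, for the barrier genes -0.040 to 0.21, and for the genes linked to TFCP2, UBP1 and TFCP2L1 -0.20 with median centring and -0.21 to -0.10 with 1 array left out. The cause was not tested. The signals of GRHL1 and, in vec, of the dimmer tested probes of ELF5 and SPRR1A were near the background. The weakest signal well above background was 8.41 to 9.74 per array. The brightest probes of ELF5 and SPRR1A were well above background on all 4 arrays.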
